A study of Bos taurus with 9 samples.

Results

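The keratin (KRT) and claudin (CLDN) genes were chosen by symbol alone, as KRT or CLDN followed by a number and at most 1 letter. Of the 17162 genes in the table of bovine endometrial cells, 32 matched: 17 keratins and 15 claudins. Their RNA was read in 9 libraries, 3 in each of 3 groups, of cells labelled as wild-type primary endometrial epithelial cells (BEND). CON cells received no hormone and no interferon. GA cells received 1 nM estradiol (E2) and 100 nM progesterone (P4) for 12 h. GB cells received the same E2 and P4 and then 100 ng/mL IFNT, the type I interferon by which the ruminant conceptus signals pregnancy, for another 12 h. The methods describe cells grown out of uteri of slaughtered Holstein cows, purified over several passages by how fast they attached, and stained for cytokeratin 18 protein. They do not say how many animals gave the cells of each library, so the p-values measure the spread between these libraries, which may be technical. Since no source used here dates the harvest of CON and GA cells, treatment and time in culture cannot be told apart in comparisons with GB.

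Keratins are the intermediate filament proteins of epithelial cells. A type I and a type II keratin join as a pair to build the filament, and simple, single-layered epithelia such as the lining of the uterus are known for KRT8 paired with KRT18, together with KRT7 and KRT19. The filaments are tied to desmosomes, the junctions that hold neighbouring cells together. Claudins span the membrane at tight junctions and seal the gap between epithelial cells or form channels through it, and occludin and scaffold proteins such as TJP1 hold the strands to the cell cortex. Mesenchymal cells, such as the fibroblasts of the endometrial stroma, build their filaments of vimentin (VIM) and carry few tight junctions.

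Levels are given as the FPKM values that the authors computed, in which fragments are divided by exon length and by the mapped reads of a library, so genes of different length can be compared. The values carry 2 decimals, and a gene listed at 0 may have a few reads or none. Most keratins and claudins were near 0. A mean of at least 1 FPKM over the 9 libraries was reached by 4 of the 32 genes (12.5%), against 69.2% of all 17162 genes. A mean under 0.5 FPKM was found for 27 of the 32 (84.4%), against 26.7% of all genes. The median of the 32 means was 0.0444 FPKM, and the median of all genes was 10.0 FPKM. Only 9 of the 32 were above 0 in every library, and 13 were above 0 in a single library. The highest value of any of the 27 low genes in any library was 0.95 FPKM, for CLDN11 in 1 GB library. Between 11 and 18 of the 32 genes were above 0 per library, and the FPKM of all genes in a library summed to between 1395620 and 1442720.

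**Figure D1:**
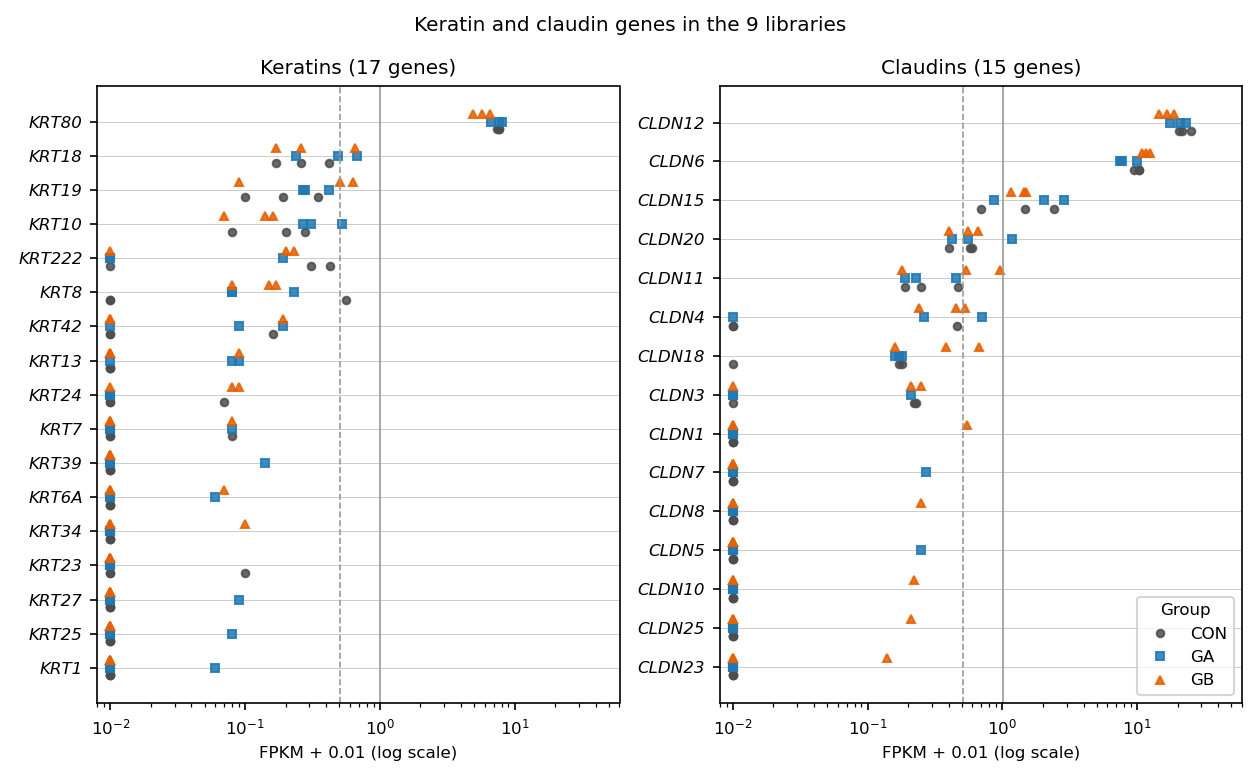
FPKM of the 17 keratins (left) and 15 claudins (right) in each of the 9 libraries, on a log axis after adding 0.01, so that a value of 0 stands at the left edge. The solid line marks 1 FPKM and the dashed line 0.5 FPKM: 3 claudins and 1 keratin have means right of the solid line, and 27 of the 32 genes have means left of the dashed line.

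The genes by level, as means over the 9 libraries, were as follows. Above 10 FPKM stood CLDN12 and CLDN6, and between 1 and 10 FPKM stood KRT80 and CLDN15. CLDN20 alone lay between 0.5 and 1 FPKM. Between 0.1 and 0.5 FPKM lay 9 genes, namely CLDN11, KRT18, KRT19, CLDN4, CLDN18, KRT10, KRT222, KRT8 and CLDN3. The other 18 were under 0.1 FPKM: KRT42, CLDN1, CLDN7, CLDN8, CLDN5, KRT13, CLDN10, KRT24, KRT7, CLDN25, KRT39, CLDN23, KRT6A, KRT34, KRT23, KRT27, KRT25 and KRT1. CLDN12 and CLDN6 were at the 61.3 and 50.0 percentiles of all 17162 genes, KRT80 at the 45.3 and CLDN15 at the 33.3.

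The simple epithelial keratins were low in all 3 groups. KRT18, the type I keratin whose protein was stained in these cultures, was at 0.25, 0.41 and 0.16 FPKM in CON, 0.48, 0.23 and 0.67 in GA, and 0.16, 0.64 and 0.25 in GB. Its type II partner KRT8 was listed at 0 in 2 CON libraries and at 0.55 FPKM in the other, at 0.07, 0.07 and 0.22 in GA, and at 0.07, 0.16 and 0.14 in GB. For both genes the 3 groups overlapped, and the mean of 0.361 FPKM put KRT18 at the 24.6 percentile of all genes. KRT8 was at the 18.6 percentile. KRT19, a type I keratin of ducts and simple linings that lacks most of the tail, was at 0.18, 0.09 and 0.34 FPKM in CON, 0.26, 0.41 and 0.27 in GA, and 0.08, 0.50 and 0.62 in GB. KRT7, a type II keratin of glands, was listed at 0.07 FPKM in 1 library of each group and at 0 in the other 6. KRT23 was above 0 in CON replicate 2 only, at 0.09 FPKM. Summed over KRT7, KRT8, KRT18, KRT19 and KRT23, the simple keratins reached 0.43 to 1.05 FPKM among CON libraries, 0.71 to 1.23 among GA and 0.38 to 1.3 among GB, which overlap. None of the 5 reached the mean of 0.5 FPKM set here for the main tests, and they were tested only in the alternative with no filter on low values.

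KRT80, a type II keratin of differentiating epithelia, was the keratin with most of the RNA. It stood at 7.59, 7.6 and 7.38 FPKM in CON, 6.66, 7.64 and 7.99 in GA, and 4.94, 5.67 and 6.57 in GB. It made up 74.7 to 91.6% of the keratin FPKM of a library, whose sum ran from 5.46 to 9.77 FPKM. The type I keratins it could pair with were far lower: the 12 type I genes summed to 0.38 to 1.76 FPKM per library, and the 5 type II genes to 5.08 to 8.28 FPKM. The ratio of the type I to the type II sum was 0.128 ± 0.0315 in CON, 0.188 ± 0.0203 in GA and 0.193 ± 0.114 in GB (SD, n = 3), with the GB libraries at 0.0748, 0.302 and 0.201. The GB libraries therefore spanned the values of the other groups.

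The remaining keratins were those of layered epithelia and of hair. KRT10, a type I keratin of the upper skin layers, was above 0 in every library, at 0.07 to 0.27 FPKM for CON, 0.26 to 0.51 for GA and 0.06 to 0.15 for GB, where each GB library lay below each GA library. Its skin partner KRT1 was above 0 in 1 library, at 0.05 FPKM. Of the 6 keratins of layered epithelia, 5 were under 0.5 FPKM, KRT80 being the other. The 4 keratins of hair and root sheath, KRT25, KRT27, KRT34 and KRT39, were each above 0 in a single library, at 0.07 to 0.13 FPKM. KRT42 and KRT222 were above 0 in 4 and 5 libraries, up to 0.18 and 0.42 FPKM.

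Among the claudins of the symbol rule, CLDN12 and CLDN6 carried most of the RNA. They made up 86.4 to 95.6% of a claudin sum that ran from 27.2 to 38.6 FPKM. That sum leaves out LOC536739, a claudin-22-like gene outside the rule with a mean of 32.6 FPKM, which is described further below. CLDN12, a claudin that lacks the usual binding motif for scaffold proteins and is linked to calcium passage in the gut, was at 20.35, 21.51 and 25.18 FPKM in CON, 23.19, 17.50 and 20.62 in GA, and 14.59, 18.80 and 16.70 in GB. CLDN6, a barrier claudin known from embryonic epithelia, was at 9.47, 10.24 and 10.34 FPKM in CON, 10.02, 7.72 and 7.51 in GA, and 10.83, 12.40 and 11.57 in GB. CLDN12 had its lowest group mean in GB, where 1 library overlapped GA, and each CLDN6 value in GB lay above all 6 others. CLDN15, a cation channel of the gut, spread widely within groups, at 2.40, 0.68 and 1.47 FPKM in CON, 2.04, 0.86 and 2.88 in GA, and 1.43, 1.48 and 1.14 in GB. CLDN20, whose function is little known, was at 0.59, 0.39 and 0.57 FPKM in CON, 1.16, 0.55 and 0.41 in GA, and 0.55, 0.65 and 0.39 in GB. For both of these the 3 groups overlapped.

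Of 9 barrier-forming claudins, 8 were under 0.5 FPKM. CLDN3, CLDN4 and CLDN7, which are typical of glandular and surface epithelia, were low: CLDN4 was at 0 in 3 libraries and reached 0.70 FPKM in GA replicate 1, CLDN3 was at 0 in 4 libraries and reached 0.24 FPKM, and CLDN7 was above 0 in GA replicate 3 only, at 0.26 FPKM. CLDN1, the main skin barrier claudin, was above 0 in GB replicate 2 only, at 0.54 FPKM, and CLDN8 in the same library only, at 0.24 FPKM. CLDN5, the claudin of blood vessel endothelium, was above 0 in GA replicate 1 only, at 0.24 FPKM. CLDN11, known from myelin and Sertoli cells, was the only low barrier claudin above 0 in every library, at 0.24, 0.18 and 0.46 FPKM in CON, 0.18, 0.22 and 0.44 in GA, and 0.17, 0.53 and 0.95 in GB. CLDN18, known from stomach and lung, had its highest values in GB, at 0.15 to 0.66 FPKM, against 0.15 to 0.17 in GA and 0 to 0.17 in CON, with overlap. Of the 2 channel-forming claudins CLDN10 was above 0 in 1 library, at 0.21 FPKM. CLDN23 and CLDN25, of the little known group, were also above 0 in 1 library each.

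Of the 27 low genes, 23 rested on few reads, meaning that they were at 0 in at least 1 library and their highest value was under 10 times their lowest value above 0. The 27 low genes summed to 1.32, 1.55 and 2.82 FPKM in CON, 2.83, 2.03 and 2.9 in GA, and 1.61, 4.36 and 3.81 in GB. The GB libraries again overlapped the others, and GB replicate 2 held both lone values of CLDN1 and CLDN8. The table gives no read counts, so the reads behind each value are unknown and no interval was set on a value of 0. The paper does report the clean reads of each group, but they were not used here to turn these values into reads. In the alternative with no filter, limma tested all 17162 genes. There 0 of the 27 low genes had an adjusted p under 0.05 in any comparison, where 23.1% of all genes had one for GB vs. CON, 20.1% for GB vs. GA and 0.198% for GA vs. CON. The share of all genes at an unadjusted p under 0.05 was not computed, here or for the later counts at that threshold. At that threshold the count was 1 of the 27 in each comparison. It was CLDN18 in GB vs. CON (log2FC 0.52, SE 0.20, adjusted p = 0.105) and KRT10 in the others, with a log2FC of -0.47 in GB vs. GA (SE 0.15, adjusted p = 0.0565) and 0.34 in GA vs. CON (SE 0.15, adjusted p = 0.319).

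The first question of the design was what hormones and IFNT did against untreated cells (GB vs. CON). All tests used limma on log2(FPKM + 0.5), on which fold changes (log2FC) of low genes are understated, with Benjamini-Hochberg adjustment over the 12578 genes with a mean of at least 0.5 FPKM. These hold 5 of the 32 genes. A DEG had |log2FC| above 1 and an adjusted p under 0.05. None of the 5 was a DEG, where 4.01% of all genes tested were. At adjusted p under 0.05 alone, 2 of the 5 differed, KRT80 and CLDN12, both lower in GB, where 33.5% of all genes tested differed. The median log2FC was -0.035 for the 5 and -0.016 for all genes tested. In bulk RNA, fewer cells of a type and less RNA per cell cannot be told apart.

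KRT80 averaged 5.73 ± 0.816 FPKM in GB and 7.52 ± 0.124 in CON (SD, n = 3 each). Each GB library was below each CON library. The log2FC was -0.37 (SE 0.11, 95% interval -0.62 to -0.13, limma adjusted p = 0.0278). The adjusted p was 0.067 without CON replicate 1, 0.0644 without CON replicate 2, 0.0563 without CON replicate 3, 0.088 without GB replicate 1, 0.0689 without GB replicate 2 and 0.113 with the GC content of the reads as a covariate, so the call was lost in each of these. CLDN12 averaged 16.7 ± 2.11 FPKM in GB and 22.3 ± 2.52 in CON, again with no overlap. Its log2FC was -0.41 (SE 0.13, 95% interval -0.70 to -0.12, limma adjusted p = 0.0335). That call held in 13 of 20 alternatives. It was lost, among others, without CON replicate 2 (adjusted p = 0.0592), without CON replicate 3 (0.105), without GB replicate 1 (0.111), without GB replicate 3 (0.0745), with the GC covariate (0.193) and with no filter on low values (0.0535). With the GC covariate the log2FC was -0.58 for KRT80 and -0.57 for CLDN12. In that fit 1472 of all genes tested had an adjusted p under 0.05 in GB vs. CON, against 4212 in the main fit. How far the GC content of the reads follows the groups was not tested. CLDN6 averaged 11.6 ± 0.785 FPKM in GB and 10.0 ± 0.476 in CON. Its libraries did not overlap between the groups, but the log2FC of 0.20 (SE 0.11, 95% interval -0.047 to 0.45) did not pass (limma adjusted p = 0.192). The log2FC of CLDN15 was -0.035 (SE 0.38, 95% interval -0.90 to 0.83) and that of CLDN20 was 0.017 (SE 0.26, 95% interval -0.58 to 0.61), which leaves room for changes of either sign.

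**Figure D2:**
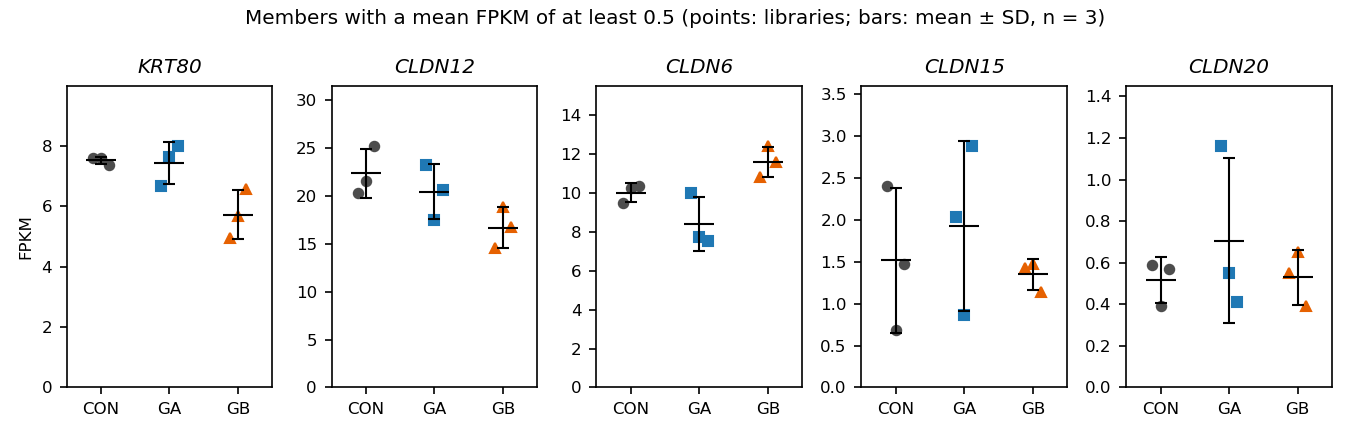
FPKM of the 5 keratins and claudins with a mean of at least 0.5, by group. Points are libraries, the long bar is the group mean and the whiskers are the SD (n = 3), each panel with its own axis from 0. KRT80 and CLDN12 are lowest in GB, CLDN6 is highest in GB, and the groups overlap for CLDN15 and CLDN20.

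The second comparison set IFNT on top of hormones against hormones alone (GB vs. GA). It shares the GB libraries with the first. Again 0 of the 5 genes were DEGs, where 3.64% of all genes tested were. At adjusted p under 0.05, 2 of the 5 differed, KRT80 lower and CLDN6 higher in GB, where 29% of all genes tested differed. The median log2FC was -0.28 for the 5 and -0.075 for all genes tested. CLDN6 averaged 8.42 ± 1.39 FPKM in GA (SD, n = 3), below GB with no overlap. Its log2FC was 0.45 (SE 0.11, 95% interval 0.20 to 0.70, limma adjusted p = 0.0141). The adjusted p rose to 0.0529 without GA replicate 2, 0.0537 without GA replicate 3 and 0.0516 without GB replicate 2. KRT80 averaged 7.43 ± 0.689 FPKM in GA, above GB with no overlap. Its log2FC was -0.35 (SE 0.11, 95% interval -0.60 to -0.11, limma adjusted p = 0.0391), and the call held in 10 of 20 alternatives. With no filter, median-of-ratios factors, quantile normalization or a fit of the 2 groups alone, the adjusted p was 0.0675, 0.0784, 0.0515 and 0.0694. Leaving out CON replicate 1 or 3 gave adjusted p = 0.0543 and 0.053, leaving out GA replicate 2 or 3 gave 0.105 and 0.125, and leaving out GB replicate 1 or 2 gave 0.123 and 0.0894. CLDN12 averaged 20.4 ± 2.85 FPKM in GA, and its log2FC of -0.28 (SE 0.13, 95% interval -0.57 to 0.0044) did not pass (limma adjusted p = 0.13). CLDN15 and CLDN20 had log2FC of -0.30 and -0.19 with SE of 0.38 and 0.26.

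The third comparison asked what E2 and P4 did alone (GA vs. CON). None of the 5 genes was a DEG in limma, where 0.0716% of all genes tested were, and 0 of the 5 had an adjusted p under 0.05, where 0.453% of all did. At an unadjusted p under 0.05 the count was also 0. The median log2FC was -0.021 for the 5 and 0.061 for all genes tested. CLDN6 came nearest, with a log2FC of -0.25 (SE 0.11, 95% interval -0.50 to 0.00053, limma adjusted p = 0.259). KRT80 had a log2FC of -0.021 (SE 0.11, 95% interval -0.27 to 0.23), and CLDN12 one of -0.13 (SE 0.13, 95% interval -0.42 to 0.16). For CLDN15 and CLDN20 the log2FC were 0.26 and 0.20, within their SE of 0.38 and 0.26. Each comparison set 3 libraries against 3, for which the smallest p of an exact permutation test on 1 gene is 0.1.

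**Figure D3:**
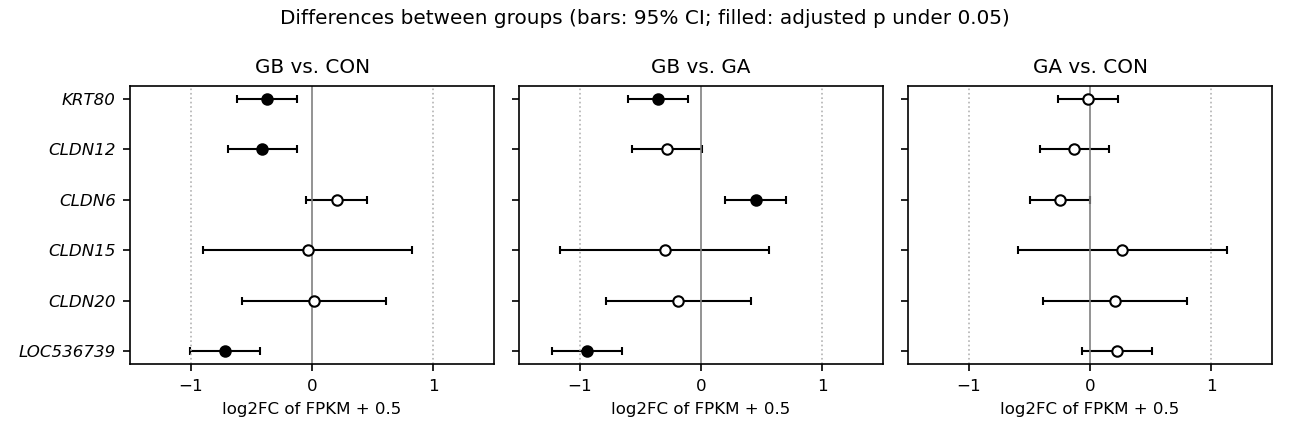
log2FC of FPKM + 0.5 with 95% intervals in the 3 comparisons, filled where the limma adjusted p is under 0.05. Dotted lines mark a log2FC of 1 and -1: none of the 5 keratins and claudins passes them, and LOC536739, a claudin-22-like gene outside the symbol rule, lies nearest, at -0.94 in GB vs. GA.

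The symbol rule leaves out genes that are keratins or claudins by description. The gene descriptions that came with the FPKM values describe 3 further rows of the table so, and they were chosen after their values were seen. LOC536739, described as claudin-22-like, was the most abundant of all keratin and claudin genes in the table, at 40.44, 31.40 and 34.12 FPKM in CON, 36.51, 38.55 and 49.22 in GA, and 22.75, 21.51 and 19.29 in GB. Its GB libraries lay below all 6 others. The log2FC of GB was -0.72 against CON (SE 0.13, limma adjusted p = 0.00239) and -0.94 against GA (SE 0.13, limma adjusted p = 0.000613), both short of the fold threshold of a DEG (passed against GA at -1.03 without GA replicate 1, and against CON at -1.01 with the GC covariate), while GA vs. CON gave 0.22 (adjusted p = 0.36). LOC112444630, a putative claudin-24, was above 0 in 3 libraries, up to 0.70 FPKM. LOC615451, a hair-type type II keratin, was above 0 in 1 library, at 0.61 FPKM. No row described as a copy of KRT8 or KRT18 was among the 3.

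Some of these genes share ground with another gene in the ARS-UCD2.0 annotation of RefSeq. The library kit keeps strand, but the sources used here do not say whether the counting used it, and without strand the reads of overlapping genes cannot be told apart. LOC536739 overlaps WWC2, a gene of the Hippo growth-control pathway, which was at 127.3 ± 4.48, 129.6 ± 7.18 and 74.2 ± 1.26 FPKM in CON, GA and GB (SD, n = 3). WWC2 was lower in GB by a log2FC of -0.77 against CON and -0.80 against GA (SE 0.050 each, limma adjusted p = 3.47e-06 and 2.96e-06), so it moved in the same direction as LOC536739. CLDN6 overlaps TNFRSF12A, a receptor of the TNF family at 1660 ± 76.8, 1877 ± 49.9 and 1671 ± 61.0 FPKM in CON, GA and GB. TNFRSF12A had a log2FC of -0.17 in GB vs. GA (SE 0.046, limma adjusted p = 0.0224), where that of CLDN6 was 0.45, so they moved in opposite directions. CLDN20 overlaps TFB1M, a mitochondrial rRNA methyltransferase at 14.4, 15.4 and 14.4 FPKM. No overlapping gene was annotated for KRT80, CLDN12, CLDN15, KRT8 or KRT18. The part of overlapping reads in these values was not tested.

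**Figure D4:**
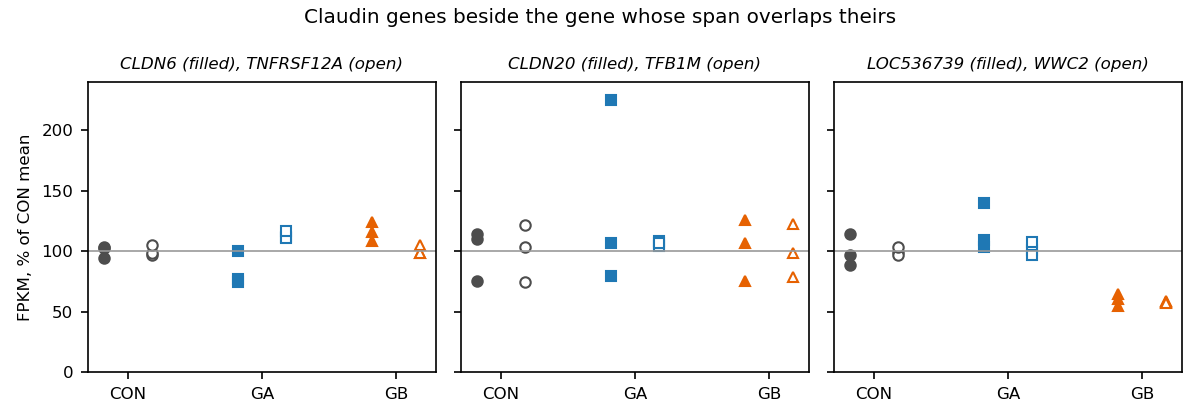
FPKM of 3 claudin genes (filled) and of the gene whose span overlaps each (open), every library as a percent of the mean of its gene in CON (n = 3 per group). LOC536739 and WWC2 both lie lowest in GB, while CLDN6 and TNFRSF12A move in opposite directions between GA and GB.

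The partners of claudins at the tight junction were split by level. Of the 15 genes reported here, 8 had a mean of at least 1 FPKM and 5 were under 0.5 FPKM, with a median of 1.5. The polarity scaffold gene PARD3 was at 42.1 FPKM, the scaffold gene TJP1 at 40.0 FPKM and MPDZ, another scaffold gene, at 8.15 FPKM. MARVELD2, which encodes the strand protein of corners where several cells meet, was at 11.4 FPKM. Occludin (OCLN), named here after its values were seen, was at 0 to 0.32 FPKM in the 9 libraries. By limma, 1 of 10 tested partners differed at adjusted p under 0.05 in GB vs. CON (33.5% of all genes tested), namely PARD3, lower with a log2FC of -0.49 (SE 0.051). In GB vs. GA (29% of all) 2 of 10 were lower, PARD3 (-0.45, SE 0.051) and PARD6B (-0.72, SE 0.20, adjusted p = 0.0266), and in GA vs. CON (0.453% of all) 0 of 10 differed, with 1 at an unadjusted p under 0.05. The median log2FC of the 10 was -0.055, -0.17 and 0.14 in the 3 comparisons in that order.

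The desmosome and linker genes, which anchor keratin filaments, showed the same split. Of 13 genes, 8 had a mean of at least 1 FPKM and 5 were under 0.5. The cross-linker genes PLEC and DST were at 202.3 and 44.4 FPKM, JUP, shared by desmosomes and adherens junctions, at 148.6 FPKM, and PKP4 at 23.2 FPKM. Desmoplakin (DSP), which ties keratin to the desmosome and is named after its values were seen, was at 0.08 to 0.21 FPKM. In GB vs. CON, where 33.5% of all genes tested differed, 3 of the 8 tested were lower in limma and 1 higher: PPL (log2FC -0.54), DST (-0.35) and PLEC (-0.27) were lower and JUP (0.28, adjusted p = 0.0199) was higher. In GB vs. GA, where 29% of all differed, 3 were lower, PPL (-0.41), DST (-0.34) and DSC2 (-0.32). In GA vs. CON, where 0.453% of all differed, 0 of the 8 did, with 3 at an unadjusted p under 0.05. The median log2FC of the 8 was -0.035, -0.13 and 0.031 in that order.

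Against the markers of cell types, the epithelial label was not borne out at the level of RNA. Of the 19 further epithelial genes reported here, 3 had a mean of at least 1 FPKM and 14 were under 0.5 FPKM, with a median of 0.14. The defining genes CDH1 (E-cadherin), MUC1, ESRP1 and GRHL2 had means of 0.0633, 0.246, 0.0244 and 0.010 FPKM, and CDH1 did not pass 0.14 FPKM in any library. The protease inhibitor gene SPINT2 was at 40.1 FPKM, CDH3 at 4.55, PROM1 at 2.36 and SPINT1 at 0.844. By contrast, all 30 stromal fibroblast genes had a mean of at least 1 FPKM, with a median of 204.8. VIM was at 7773 to 9570 FPKM, which is 896 to 1424 times the sum of all 17 keratins in the same library. The collagen genes COL1A2 and COL1A1 were at 2615 and 2389 FPKM, MMP2 at 2385, DCN at 970.2 and PDGFRA at 167.2. The study reports the cytokeratin stain of these cells as positive. RNA levels do not measure the stained protein, and neither the origin of the cells nor the stain was tested here.

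**Figure D5:**
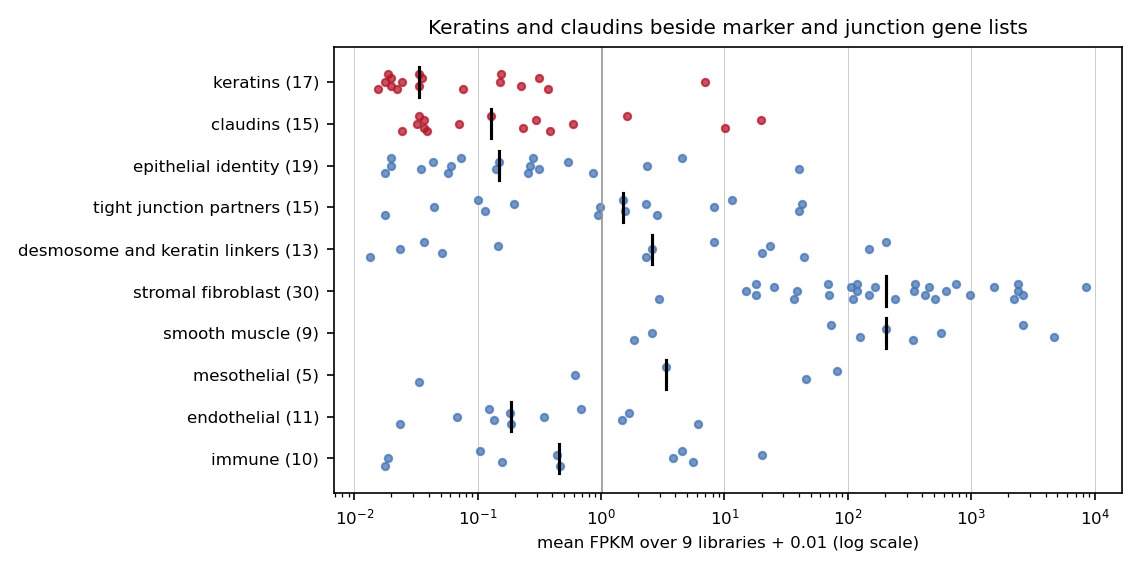
Mean FPKM over the 9 libraries plus 0.01, on a log axis, of each keratin and claudin (red) and of each gene reported here from the marker and junction lists (blue), with the number of genes in brackets and the list median as a black bar. Before the 0.01 is added, the keratin, claudin and epithelial medians lie under 0.2 FPKM and the stromal fibroblast and smooth muscle medians above 200.

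The other lists fell between. All 9 smooth muscle genes had a mean of at least 1 FPKM, led by TAGLN (4690 FPKM), ACTA2 (2628), CNN1 (573.1) and ACTG2 (336.3), genes that cultured fibroblasts also express. The smooth muscle median was 203.5 FPKM, beside 204.8 for the stromal list, and which cells this RNA came from was not tested. Of 5 mesothelial genes, 3 had a mean of at least 1 FPKM, UPK1B (81.0), WT1 (45.4) and MSLN (3.37), while UPK3B was at 0.604. Of 11 endothelial genes, 3 had a mean of at least 1 FPKM, EGFL7 (6.10), EMCN (1.67) and CDH5 (1.46), with ESAM next at 0.677. Of 10 immune genes, 4 had a mean of at least 1 FPKM, CD14 (20.2), CD8A (5.50), CD163 (4.48) and CD68 (3.83). The intermediate filament genes other than keratins were far higher than the keratins: 9 of 13 had a mean of at least 1 FPKM, led by VIM, LMNA of the nuclear lamina (1482), nestin (NES, 274.0) and desmin (DES, 203.5).

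Genes of several of these lists also differed between groups, and their part in the differences of KRT80, CLDN12 and CLDN6 was not tested. Of all 12578 genes tested, 33.5% differed in GB vs. CON (2178 lower and 2034 higher) and 29% in GB vs. GA (2409 lower and 1242 higher). The stromal genes summed to 23734 to 23936 FPKM across GB libraries, below the 25733 to 26352 of GA and the 25846 to 26637 of CON. Of the 30, 16 were lower and 2 higher in GB than in CON, and 17 lower and 3 higher in GB than in GA (limma adjusted p under 0.05). The median log2FC was -0.20 and -0.17. In GA vs. CON, where 0.453% of all genes tested differed, 2 of the 30 were higher and 1 lower, with a median of -0.034. VIM was lower in GB by a log2FC of -0.22 against CON (adjusted p = 0.00338), and PDGFRA was higher, at 195.7 ± 4.80 against 150.2 ± 7.20 FPKM. Of 9 smooth muscle genes, 6 were lower and 1 higher in GB than in CON, and 5 were lower and 1 higher in GB than in GA. The 19 epithelial genes summed to 45.9 to 51.2 FPKM across GB libraries, against 46.1 to 54.2 across GA and 50.8 to 52.0 across CON. These counts and sums cover the genes reported here, not every gene of the list, and of the 5 epithelial genes tested among them 0 passed limma's adjusted p of 0.05 and 0 an unadjusted p of 0.05 in any comparison.

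KRT8 and KRT18 overlapped between GB and the other groups. CDH1 was at 0.07 to 0.14 FPKM in GB and 0 to 0.04 in CON, with no overlap, and at 0.04 to 0.1 in GA. MUC1 was at 0.33 to 0.74 FPKM in GB, above all 6 other libraries, which held 0.05 to 0.24. In the limma fit with no filter, MUC1 had a log2FC of 0.75 in GB vs. GA (SE 0.16, adjusted p = 0.011), while GB vs. CON gave 0.50 for MUC1 (SE 0.16, adjusted p = 0.0524) and 0.19 for CDH1 (SE 0.080, adjusted p = 0.135). Among the list genes reported here, the DEGs were CD163, a macrophage scavenger receptor gene, at 2.32 ± 0.342, 1.89 ± 0.0557 and 9.23 ± 0.172 FPKM in CON, GA and GB (SD, n = 3), and the filament genes NEFH and INA. NEFH, a neurofilament subunit, had a log2FC in GB of 1.71 against CON and 1.47 against GA. INA, internexin of neurons, was at 33.7 ± 2.19, 28.3 ± 0.863 and 59.5 ± 1.89 FPKM and was a DEG in GB vs. GA only (log2FC 1.06, SE 0.059), with 0.81 in GB vs. CON, a difference between comparisons that was not tested. None of the list genes reported here was a DEG in GA vs. CON, where 0.0716% of all genes tested were. Against CON, GB had 2 DEGs among the list genes, where 4.01% of all genes tested were DEGs. Against GA it had 3, where 3.64% of all were. They lay among the 4 immune and 9 other intermediate filament genes tested, and no other list held a DEG. The list genes tested were not totalled across lists, so these counts do not set the lists apart from other genes. The mesothelial genes gave 1 higher (UPK1B) and 1 lower (WT1) in each comparison with GB, and of the 4 endothelial genes tested CDH5 was higher and EGFL7 lower in GB than in GA. Against CON 0 of the 4 differed in limma, and 0 also at an unadjusted p under 0.05. Of the 9 other intermediate filament genes tested, 2 were higher and 4 lower in GB than in CON, and 3 higher and 4 lower in GB than in GA, beside 33.5% and 29% of all genes tested.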

How the data were processed

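Libraries were made from poly-A RNA with a directional kit, 3 for each of CON, GA and GB, and groups were taken from the sample labels. Per the labels and the submitters' processing notes, the authors trimmed reads with fastp 0.21.0, removed rRNA reads with Bowtie2, aligned to ARS-UCD1.2 with HISAT2 2.2.1, counted with RSEM 1.3.3 and tested with DESeq2 1.34.0. No source used here gives the annotation release. The table was deposited as FPKM that the authors computed for each gene in each library, to 2 decimals, with replicates in separate columns, and 0 columns belonged to no sample. They hold no counts, so depth is unknown from them, and the study's count test could not be run.

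Here log2(FPKM + 0.5) was fitted with limma 3.58.1 in R 4.3.3, with 1 mean per group over the 9 libraries and a trend of variance on level, for genes whose mean over these was 0.5 FPKM or more. The 12578 tested genes were adjusted together by Benjamini-Hochberg, and the study's thresholds (|log2FC| above 1, adjusted p under 0.05) were kept. The fit was tested on simulated data. Figures were drawn with matplotlib 3.10.9 in Python 3.11.15.

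The members and gene lists (type I, type II, simple, layered-epithelium and hair keratins, barrier, channel and little known claudins, tight junction partners, desmosome and linker genes, epithelial, stromal fibroblast, smooth muscle, endothelial, mesothelial, immune, and other intermediate filament genes) were chosen with earlier results of these data known. Named genes were all members, the 4 genes of each other list with the highest mean, those that were DEGs, and CDH1, MUC1, ESRP1, GRHL2, VIM, COL1A1, DCN and PDGFRA, except where the text says otherwise. PARD6B, PPL and DSC2 were named because they complete a count of 5 or fewer. A permutation test planned for the ratio of type I to type II keratins was not used, because the ratio is a score over members. Of 79 keratin and claudin symbols in ARS-UCD2.0, 47 were not analysed here, and some genes of the lists are not reported here, and list counts cover the rest. That assembly differs from the files' build, so it gave names and neighbours only, and no sequence was at hand.

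Results were recomputed with 1 or 0.1 added in place of 0.5, with the filter dropped or set at 1 FPKM, with TPM, quantile normalization, median-of-ratios factors, a fit of only the groups being compared, no variance trend, a block for replicate number, the GC content of the reads as a covariate, and each library left out in turn. Counts of members past an adjusted p of 0.05 and the values of LOC536739 were added after seeing the data.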

Additional observations from a re-analysis of the deposited data

How the results depend on the processing

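Of the keratins and claudins of the symbol rule, the 5 of the main tests were not DEGs in any comparison, in any alternative that tested them. The 27 low genes entered only the alternative with no filter, where 0 were DEGs. There 520, 472 and 7 of all 17162 genes were DEGs in GB vs. CON, GB vs. GA and GA vs. CON. Fold changes of such low genes are understated on this scale, so that 0 says little about them. The count of keratins and claudins with adjusted p under 0.05 moved. In GB vs. CON it was 2, and 1 with no filter on low values, 1 with the replicate block, 0 with the GC covariate and 0 to 2 with single libraries left out. In GB vs. GA it was 2, and 1 with no filter, 1 with median-of-ratios factors, 1 with quantile normalization, 1 in the fit of the 2 groups compared and 0 to 2 with single libraries left out. The cause was not tested, though leaving out a library leaves fewer samples. Over the 5 tested genes and 3 comparisons, 294 alternative values were computed: 268 stayed on their side of the threshold, 26 lost the call and 0 differences that had passed changed sign. Most of the 294 belong to differences that had not passed, so the 268 do not measure how stable the calls were. All 26 losses fell on the calls of KRT80, CLDN12 and CLDN6. In GB vs. CON the log2FC of KRT80 ran from -0.58 to -0.28 and stayed past the threshold in 14 of 20 alternatives. That of CLDN12 ran from -0.57 to -0.32 and stayed past it in 13 of 20. In GB vs. GA the log2FC of KRT80 ran from -0.45 to -0.26 and stayed past it in 10 of 20. That of CLDN6 ran from 0.38 to 0.57 and stayed past it in 17 of 20. LOC536739, outside that rule, kept an adjusted p under 0.05 in all 20 in both comparisons with GB and was a DEG in 1 for each (log2FC -1.01 against CON with the GC covariate and -1.03 against GA without GA replicate 1), and CD163 and NEFH were DEGs in all 20 in both. ACTA2 in GB vs. CON was the only called gene of the lists to change sign, to 0.049 with the GC covariate.

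Deviations of samples with the same replicate number were little correlated (9 pairs, correlations from -0.031 to 0.077). No source used here says whether the numbers pair the samples, and low correlations over the tested genes cannot exclude a pairing. With the replicate block the counts of keratins and claudins past adjusted p of 0.05 were 1, 2 and 0 in GB vs. CON, GB vs. GA and GA vs. CON, CLDN12 in GB vs. CON being lost (adjusted p = 0.0553).

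Genes under 0.5 FPKM were tested only with no filter, and most keratins and claudins there rest on few reads. The ratio of KRT8 to KRT18 alone was not computed, because KRT8 was at 0 in 2 CON libraries.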
